A study of Mus musculus with 4 samples.

Results

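The regulatory T cell gene set consisted of 8 genes that were chosen by symbol: Foxp3, Ctla4, Ikzf2, Ikzf4, Lrrc32, Tnfrsf4, Tnfrsf9 and Tnfrsf18. All 8 were found among the 31053 genes of the count matrices. The mice were C57BL/6 males of 5 to 10 weeks and carried floxed Ift20 alleles in every group, with no Cre in WT (Ift20 f/f) and with CD4-cre in KO (Ift20 f/f CD4 cre). CD4-cre is active from the stage at which thymocytes make both CD4 and CD8, so it deletes in CD4 and CD8 T cells alike. Each genotype received either DPBS, a buffered saline, or Papain, a plant protease used as an inhaled allergen, at 25 µg on 3 consecutive days with a further dose on day 14, and lungs were taken on day 15. Live CD45.2+ lung cells were sorted, and each of the 4 groups, named by treatment and genotype (for example DPBS-WT or Papain-KO), was measured as 1 single-cell library of 3′ transcript ends. Where 4 values follow each other below, the 2 DPBS libraries come before the 2 papain libraries, with WT ahead of KO in both pairs. The number of mice per library is not given in the sources used here.

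Regulatory T cells are CD4 T cells that restrain other immune cells, and in the lung they limit allergic inflammation. FOXP3 is the transcription factor that maintains their identity. Helios (Ikzf2) and Eos (Ikzf4) are Ikaros family factors that act with it. CTLA-4 (Ctla4) takes CD80 and CD86 away from antigen-presenting cells, and GARP (Lrrc32) holds latent TGF-β on the cell surface. OX40 (Tnfrsf4), 4-1BB (Tnfrsf9) and GITR (Tnfrsf18) are costimulatory receptors of the TNF receptor superfamily that signal through TRAF adaptors and NF-κB. Several of these genes are also switched on in conventional T cells by activation, so no member other than Foxp3 marks regulatory T cells by itself.

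On GRCm38, with the GENCODE M21 annotation, Foxp3 lay at chrX:7573644-7595245 (+), Ctla4 at chr1:60887000-60915832 (+) and Ikzf2 at chr1:69531214-69687245 (-). Ikzf4 lay at chr10:128630843-128645991 (-) and Lrrc32 at chr7:98489283-98502181 (+). The 3 receptor genes shared chromosome 4, with Tnfrsf9 at chr4:150914562-150946102 (+), Tnfrsf4 at chr4:156013843-156016612 (+) and Tnfrsf18 at chr4:156026164-156028895 (+). Tnfrsf4 and Tnfrsf18 were separated by 9551 bases. Only Lrrc32 and Tnfrsf4 overlapped no other annotated gene. Foxp3 overlapped Flicr on its own strand, Ctla4 overlapped Rpl18-ps1, and Ikzf2 overlapped Gm29112 and Gm28112. Foxp3, Ikzf2, Ikzf4, Tnfrsf9 and Tnfrsf18 overlapped genes on the opposite strand, so that the counts of these 6 overlapped members are uncertain to the extent that overlapping reads were shared.

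The 100 bases before an annotated start were available for 5 members (RefSeq, GRCm38.p6) and are shown because the data below turn on genes that respond to FOXP3 or to T cell activation. Capitals mark the forkhead core AAACA, which reads TGTTT on the other strand, the 9-letter NF-κB pattern GGGNNTTCC, the AP-1 pattern TGANTCA, the NFAT core GGAAA and the TATA box TATAAA, each searched on both strands together with the RUNX pattern TGTGGT.
Foxp3, chrX:7579576-7579675 (+): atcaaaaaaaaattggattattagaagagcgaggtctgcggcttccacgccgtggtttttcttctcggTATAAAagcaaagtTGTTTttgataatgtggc
Ctla4, chr1:60908925-60909024 (+): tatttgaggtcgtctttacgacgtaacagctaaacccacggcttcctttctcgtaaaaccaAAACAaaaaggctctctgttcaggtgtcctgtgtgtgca
Tnfrsf4, chr4:156013595-156013694 (+): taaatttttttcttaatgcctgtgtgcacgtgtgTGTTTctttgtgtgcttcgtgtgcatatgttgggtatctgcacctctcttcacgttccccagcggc
Tnfrsf9, chr4:150927899-150927998 (+): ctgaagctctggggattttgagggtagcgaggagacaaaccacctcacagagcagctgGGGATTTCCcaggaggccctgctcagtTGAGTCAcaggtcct
Tnfrsf18, chr4:156026222-156026321 (+): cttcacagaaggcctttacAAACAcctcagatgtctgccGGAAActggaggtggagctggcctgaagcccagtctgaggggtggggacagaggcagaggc

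Of 7 member windows in all, which include a second start each for Foxp3 and Tnfrsf9, 4 held the forkhead core, against 20.3% of 32851 promoter windows of the same length. The NFAT core was in 2 member windows and in 26.3% of all windows, and in the Tnfrsf9 window it lay on the other strand inside the NF-κB match. The NF-κB pattern was in 1 member window (2.21% of all), the AP-1 pattern in 1 (2.73%), the TATA box in 1 (5.56%) and the RUNX pattern in 0 (5.61%). These matches describe letters and were not tested for binding.

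The libraries held 5863 to 8552 cell barcodes with 53854420 to 75675956 unique molecular identifiers (UMIs) each, and 25909 cells remained after filtering. Pairs of libraries shared 7 to 16 barcodes, at most 0.222% of the smaller library. Cells called CD4 T-like numbered 1164 in the WT and 822 in the KO library under DPBS, and 1274 and 842 under papain. Of these cells, 57.5% to 66.7% had a Cd4 UMI and 93.6% to 94.9% a Cd3e UMI. Over the same cells Ift20 was at 56.8, 22.1, 58.8 and 17.4 counts per 1000000 UMIs (CPM), so that both KO libraries were below both WT libraries. The 3′ reads do not span the floxed part of Ift20, so this level does not test the deletion itself. With 1 library per group there was no replicate of any genotype or treatment, and the 95% intervals given below cover counting error only.

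Across the lung immune cells, Foxp3 was found mainly in T cells. Its level in CD4 T-like cells was 18.4 CPM (WT) and 16.6 CPM (KO) under DPBS, and 51.1 CPM (WT) and 26.1 CPM (KO) under papain. In CD8 T-like cells it was between 0.954 and 1.97 CPM, in B-like cells between 0.0984 and 1.27 CPM, and ILC2-like cells, neutrophil-like cells and plasma-like cells had 0 UMIs. CD4 T-like cells held 59.5%, 58.5%, 51.4% and 53.3% of all Foxp3 UMIs of a library. T cells with neither a CD4 nor a CD8 call had 43.1, 25.8, 103 and 37.1 CPM. The rest lay mainly in T8, an unnamed T sub-cluster led by the cell division genes Ccna2, Ska1 and Kif11, at 11.5, 37.9, 75.7 and 32.0 CPM, and in T9, an unnamed sub-cluster led by Il17a, at 27.2 to 64.1 CPM.

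The 2 other transcription factors had wider patterns than Foxp3. Ikzf2, whose product Helios is also made in innate-like lymphocytes, stood at 50.6, 42.1, 144 and 57.0 CPM in CD4 T-like cells of the 4 libraries. It was higher in T12, an unnamed sub-cluster led by the γδ T cell receptor genes Tcrg-C2, Tcrg-C4 and Trdc, at 747, 1154, 702 and 589 CPM, and in T7, led by Xcl1, Klra7 and Klrc2, at 277 to 404 CPM. ILC2-like cells had 52.5 to 93.6 CPM and NK-like cells 24.5 to 149 CPM. Ikzf4, which encodes Eos, a partner of FOXP3, was at 7.27, 13.2, 23.6 and 12.3 CPM in CD4 T-like cells. Its highest level was in mature DC-like cells, at 118, 150.5, 129.7 and 78.1 CPM from 17, 12, 50 and 10 cells, and every one of these values lay above those of CD4 T-like cells.

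Ctla4, which encodes the inhibitory receptor for CD80 and CD86, was at 58.8, 58.7, 190.3 and 78.9 CPM in CD4 T-like cells, with Papain-WT standing apart. The dividing sub-cluster T8 had 281, 227, 454 and 270.4 CPM and the Il17a-led T9 had 176, 248, 363 and 333 CPM. CD8 T-like cells were lower in every library, at 14.9 to 41.9 CPM. Outside T cells, plasma-like cells (4 to 24 per library) had Ctla4 at 23.3 to 155 CPM. Lrrc32, which encodes the TGF-β anchor GARP, was at 7.43, 11.8, 20.8 and 9.07 CPM in CD4 T-like cells. Mature DC-like cells had 31.8, 22.6, 49.3 and 45.6 CPM of Lrrc32, and conventional DC1-like cells 9.56, 19.4, 9.58 and 38.1 CPM.

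The 3 TNF receptor members differed from each other in where they were found. Tnfrsf4 (OX40) stood at 43.8, 80.4, 276 and 98.0 CPM in CD4 T-like cells, and CD8 T-like cells stayed between 3.57 and 14.6 CPM. Mature DC-like cells had 145, 218, 114 and 78.1 CPM of Tnfrsf4. In ILC2-like cells Tnfrsf4 was at 9.34, 10.5, 101 and 0 CPM, where the Papain-WT value rested on 57 UMIs in 11 of 81 cells and the Papain-KO value allowed up to 6.53 CPM (3 UMIs). In NK-like cells Tnfrsf4 was at 1.17, 4.82, 86.2 and 0 CPM, but the Papain-WT value came from 1 cell with 30 UMIs. That library's NK-like cells also had Cd3e at 178 CPM, against 8.17 to 36.1 CPM in the NK-like cells of the other libraries.

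Tnfrsf9 (4-1BB) was at 8.98, 10.0, 65.2 and 24.9 CPM in CD4 T-like cells and was higher in NK-like cells of every library, at 265, 315, 262 and 239 CPM. Mature DC-like cells had 468, 707, 242 and 143 CPM of Tnfrsf9. Tnfrsf18 (GITR), the member with a UMI in the most cells (5533), was at 104, 153, 220.5 and 148 CPM in CD4 T-like cells. ILC2-like cells stood above them in every library, at 517, 508, 347 and 475 CPM of Tnfrsf18, and 74.1% to 83.8% of these cells had a UMI. NK-like cells had 128, 159, 106 and 85.6 CPM and CD8 T-like cells 68.6 to 98.3 CPM. The plot of levels by cell class shows these patterns for all members.

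**Figure D1:**
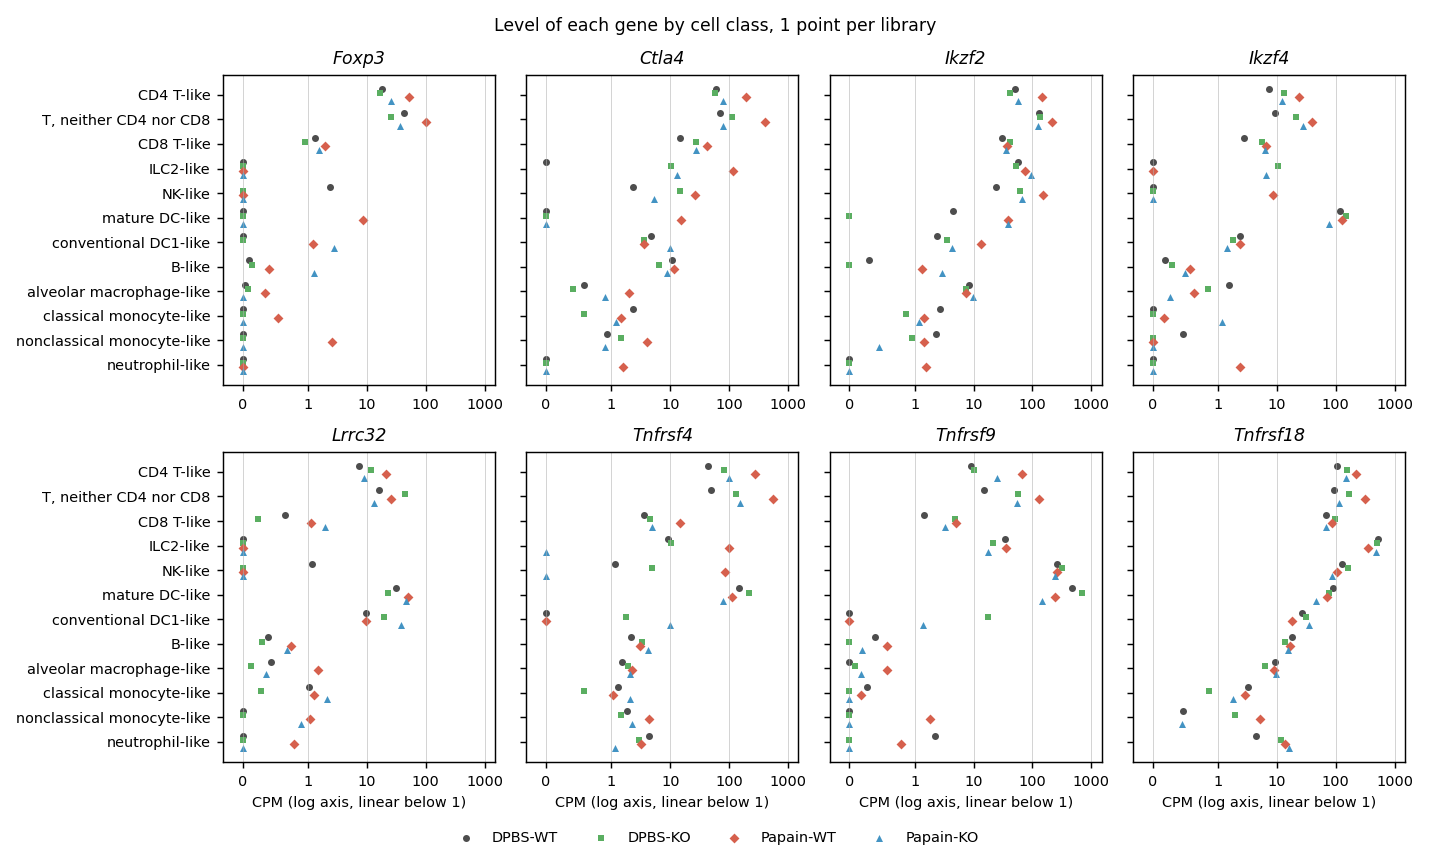
Level of each member in CPM (x axis, logarithmic above 1) in 12 cell classes (y axis), with 1 point per library. Foxp3 was highest in CD4 T-like cells and in T cells with neither call, whereas Tnfrsf18 was highest in ILC2-like cells (347 to 517 CPM) and Tnfrsf9 in mature DC-like cells (143 to 707 CPM) and NK-like cells (239 to 315 CPM).

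Across 72 sums of UMIs (18 classes in 4 libraries, compared over 12932 genes on the log2(CPM + 5) scale), the genes with the pattern most like that of Foxp3 were Cd40lg (Pearson r = 0.88), Tnfrsf4 (0.87) and Cd4 (0.87). Tnfrsf4 in turn was most like Ctla4 (0.87), Foxp3 (0.87) and Ncmap (0.86). Ctla4 was most like Slamf1 (0.89), Smco4 (0.87) and Tnfrsf4 (0.87), and Ikzf4 was most like Tnfrsf4 (0.78), Cd4 (0.77) and Foxp3 (0.77). The genes most like Tnfrsf18 were Gata3 (0.93), Skap1 (0.92) and Slain1 (0.92), and those most like Ikzf2 were Tox (0.92), Cd27 (0.90) and Zap70 (0.89). Tnfrsf9 was most like Sytl2 (0.87), Rgs16 (0.87) and Il2rb (0.84), and Lrrc32 was most like Sdcbp2 (0.80), Ankrd55 (0.70) and Cyp2s1 (0.69). Foxp3 correlated with Ikzf2, Tnfrsf9 and Tnfrsf18 at 0.47, 0.43 and 0.45 only. The sums of a library share its depth and its cells, so these values are descriptions.

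Among the ligands, Cd80 and Cd86, the targets of CTLA-4, were highest in mature DC-like cells, at 195 to 354 CPM for Cd80 and 247 to 504 CPM for Cd86. Tnfsf9, which encodes the 4-1BB ligand, was at 135 to 295 CPM in C14, an unnamed cluster led by Mgl2, Cd209a and Fcrls, and at 45.1 to 313 CPM in mature DC-like cells. Tgfb1, whose latent product binds GARP, was highest in classical monocyte-like cells, at 674 to 947 CPM. Tnfsf4, the OX40 ligand gene, reached 37.6 CPM in mature DC-like cells of DPBS-KO, which rested on 5 UMIs. Tnfsf18, the GITR ligand gene, had 0 UMIs in CD4 T-like, mature DC-like and ILC2-like cells and was at 0.197 to 0.492 CPM in B-like cells. Mature DC-like cells numbered 10 to 50 and ILC2-like cells 50 to 81 per library, so a low level of Tnfsf18 could be missed in them. Il2, which encodes the growth factor that regulatory T cells depend on, was at 31.5 to 74.0 CPM in ILC2-like cells and at 4.21 to 11.8 CPM in CD4 T-like cells.

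Cells with at least 1 Foxp3 UMI, called Foxp3-positive here, made up 50 of 1164 CD4 T-like cells (4.30%) in the DPBS-WT library and 27 of 822 (3.28%) in its KO counterpart. Under papain they made up 113 of 1274 (8.87%) in WT and 44 of 842 (5.23%) in KO. Median UMIs per CD4 T-like cell were 5318, 5882.5, 5911 and 6237.5, so cells were thinned at random to 2000 UMIs to compare shares at 1 depth, which left out 3, 4, 8 and 0 cells. Under DPBS the share was then 2.33% in WT (exact Clopper-Pearson interval 1.54% to 3.37%) and 2.20% in KO (1.31% to 3.46%). Under papain it was 5.77% in WT (4.55% to 7.20%) and 2.73% in KO (1.74% to 4.07%). Papain-WT was thus the high library, and in this draw its interval did not overlap those of the other 3. Over all draws of the thinning the expected shares were 2.28%, 2.12%, 5.79% and 3.06%. B-like cells, which do not make FOXP3, had 0.0451%, 0%, 0.0966% and 0.172% after thinning, at median depths of 3886 to 4786 UMIs. The 0 in DPBS-KO B-like cells allows a share of up to 0.206% (3 cells of 1454).

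As log2 ratios of the thinned share, KO stood at -0.08 against WT under DPBS (exact conditional interval -1.03 to 0.83) and at -1.08 under papain (-1.82 to -0.38). Papain stood at 1.31 against DPBS in WT (0.66 to 2.0) and at 0.31 in KO (-0.64 to 1.29). These values come from 1 random draw. Taken from the expected shares over all draws, the genotype ratio was -0.11 under DPBS and -0.92 under papain. The papain ratio was then 1.34 in WT and 0.53 in KO. With 1 library per group these ratios compare libraries and have no replicate check. In cells gated by their own transcripts (a Cd4 and a Cd3 UMI, no Cd8 UMI and no UMI of Cd79a, Ms4a1 or Lyz2) the papain genotype ratio was -0.64 (-1.88 to 0.48) and the WT papain ratio 0.84 (-0.32 to 2.14), and with cells of 1 Foxp3 UMI left out the former was -1.14 (-2.49 to 0.04), so that these intervals included 0. Foxp3-positive cells outside the CD4 T-like class add to the picture. Counting all cells, 82, 45, 204 and 82 were Foxp3-positive, and CD4 T-like cells held 60.98%, 60%, 55.4% and 53.7% of them. Among cells of the dividing sub-cluster T8 with a Cd4 and no Cd8 UMI, which had no named class, 4 of 35, 3 of 9, 20 of 46 and 6 of 19 were Foxp3-positive.

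Within CD4 T-like cells the other 7 members were all higher in Foxp3-positive than in Foxp3-negative cells, in each of the 4 libraries. This was the 1 comparison with replication: UMIs were summed per library and status, and the 4 libraries, which differ in genotype and treatment, served as replicates with the library as a block in edgeR's quasi-likelihood test. Of 9837 genes tested without Foxp3, 1285 (13.1%) were higher and 1156 (11.8%) were lower at an adjusted p under 0.05. All 7 members were among the higher genes and 0 were among the lower. The median log2 fold of the 7 was 3.67, against -0.05 over all genes tested. Foxp3-positive cells held slightly more UMIs than their number would give (5.52%, 3.65%, 10.45% and 6.36% of CD4 T-like UMIs), and a Foxp3 UMI can be missed in a cell of low depth, so the Foxp3-negative sums may still contain regulatory T cells.

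Ikzf2 was at 569, 659, 1033 and 576 CPM in Foxp3-positive cells, and at 20.3, 18.7, 40.6 and 21.7 CPM in Foxp3-negative cells. Its log2 fold was 4.52 ± 0.11 (SE, 4 libraries, edgeR adjusted p = 8.2e-167). Ikzf4 was at 50.5, 65.9, 118 and 34.2 CPM against 4.75, 11.2, 12.5 and 10.9 CPM, with a log2 fold of 2.55 ± 0.22 (edgeR adjusted p = 1.4e-24). Both Ikaros factors were thus well above the Foxp3-negative cells in every library.

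Ctla4 was at 479.5, 654, 1035 and 605 CPM in Foxp3-positive cells and at 34.2, 36.2, 91.7 and 43.2 CPM in Foxp3-negative cells. Its log2 fold was 3.49 ± 0.11 (edgeR adjusted p = 2.1e-131). Lrrc32 was at 89.7, 176, 161 and 119.8 CPM against 2.62, 5.62, 4.45 and 1.55 CPM. Its log2 fold of 4.98 ± 0.22 (edgeR adjusted p = 8.7e-82) made it 1 of the 10 genes with the largest rise.

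Tnfrsf4 was at 426, 813, 1417 and 936 CPM in Foxp3-positive cells and at 21.5, 52.6, 143 and 41.1 CPM in Foxp3-negative cells, a log2 fold of 3.67 ± 0.18 (edgeR adjusted p = 2.3e-08). Tnfrsf9 was at 126, 214, 464 and 342 CPM against 2.13, 2.29, 18.6 and 3.29 CPM, a log2 fold of 5.19 ± 0.42 (edgeR adjusted p = 1.1e-03). Tnfrsf18 was at 365, 517, 822 and 593 CPM against 88.8, 139, 150.3 and 118 CPM. Its log2 fold of 1.92 ± 0.10 (edgeR adjusted p = 1.1e-59) was the smallest of the 7, and 31.6% to 43.9% of Foxp3-negative cells already had a Tnfrsf18 UMI.

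**Figure D2:**
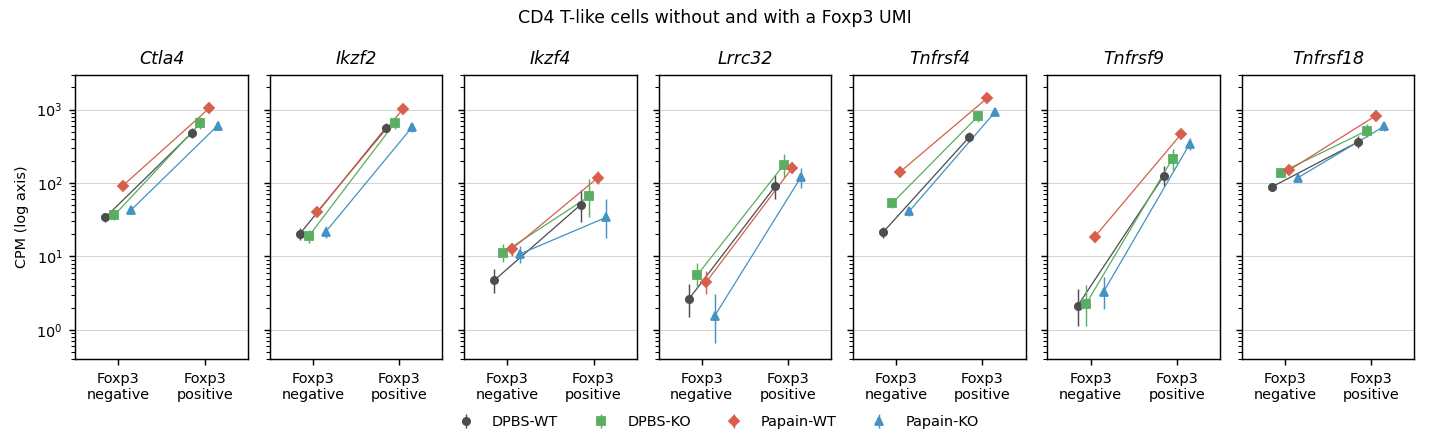
Level of the other 7 members in CPM (y axis, logarithmic) in CD4 T-like cells without and with a Foxp3 UMI, with 1 line per library and 95% Poisson intervals. Every line rises from left to right, from 2.13 to 18.6 CPM up to 126 to 464 CPM for Tnfrsf9 and from 88.8 to 150.3 CPM up to 365 to 822 CPM for Tnfrsf18.

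The members differed in how much of their CD4 T-like signal lay in the 3.28% to 8.87% of cells that were Foxp3-positive. For Tnfrsf9 these cells held 77.6%, 78.0%, 74.4% and 87.6% of the UMIs, and for Lrrc32 66.7%, 54.2%, 80.8% and 84.0%. For Ikzf2 the part was 62.1%, 57.1%, 74.8% and 64.3%, for Tnfrsf4 53.7%, 36.9%, 53.6% and 60.7%, and for Ctla4 45.0%, 40.6%, 56.8% and 48.7%. Most CD4 T-like UMIs of Tnfrsf18 lay outside, since Foxp3-positive cells held only 19.3%, 12.4%, 38.9% and 25.5%. For Ikzf4 the part under DPBS was 38.3% in WT (24.5% to 53.6%) and 18.2% in KO (9.76% to 29.6%), with overlapping intervals. Under papain it was 52.4% in WT (45.0% to 59.7%) and 17.6% in KO (9.47% to 28.8%). Each KO part rested on 12 UMIs in Foxp3-positive cells.

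Co-expression was also seen cell by cell. After thinning to 2000 UMIs, Foxp3-positive cells had UMIs of 2.40 ± 1.46 (SD over cells), 2.67 ± 1.78, 3.58 ± 1.68 and 2.52 ± 1.59 of the 7 other members. Foxp3-negative cells had 0.257, 0.415, 0.498 and 0.356 on average. At least 3 members were found in 38.0%, 51.9%, 76.1% and 52.3% of Foxp3-positive cells, so that Papain-WT was again the highest library. The same was true of only 0.990%, 1.77%, 4.16% and 1.38% of Foxp3-negative cells. None of the 7 was found in 3 of 50, 3 of 27, 4 of 113 and 7 of 44 Foxp3-positive cells.

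Partner genes of regulatory T cells from 3 lists were read from the same fit. Over all genes tested, 13.1% were higher and 11.8% were lower, and the lists were chosen with earlier results of these data known. Of 23 surface and secreted genes, 23 were higher in Foxp3-positive cells and 0 lower, with a median log2 fold of 3.14. Among them, Ccr8 in DPBS-WT was at 0 CPM in Foxp3-positive and 0.983 CPM in Foxp3-negative cells, and Tigit rested on 29 UMIs. The largest rises were those of Klrg1 (5.87 ± 0.20), a receptor of differentiated lymphocytes, of Itgae (5.65 ± 0.22), the CD103 integrin chain of tissue-resident T cells, of Il2ra (4.94 ± 0.21), the CD25 chain of the IL-2 receptor, and of the chemokine receptor gene Ccr6 (4.37 ± 0.57). Of 17 transcription factors, 9 were higher, among them Rora (2.41 ± 0.11), Maf (2.06 ± 0.12) and Irf4 (1.496 ± 0.26). In DPBS-KO, Irf4 went the other way, at 5.50 CPM in Foxp3-positive and 9.99 CPM in Foxp3-negative cells. Another 6 were lower, among them Tcf7 (-2.16 ± 0.12), Lef1 (-1.87 ± 0.11), Satb1 (-1.54 ± 0.10) and Ikzf1 (-1.34 ± 0.13), of which Tcf7 and Lef1 are factors of naive T cells. Foxo1 and Tbx21 were not called.

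Of 13 genes of the TRAF and NF-κB route that the TNF receptor members use, 8 were higher and 1 was lower. Of all genes tested, 13.1% were higher and 11.8% lower. Traf1 (1.42 ± 0.10), Rel (1.20 ± 0.12), Nfkb1 (0.97 ± 0.10) and Nfkb2 (0.97 ± 0.16) led the higher genes, and Birc2 was lower (-0.35 ± 0.14, edgeR adjusted p = 0.045), although its CPM was lower in only 2 of 4 libraries. Birc3, Traf3, Traf5 and Traf6 were not called. Of 6 tested genes of the ligand list, Cd80 (3.33 ± 0.56), Cd86 (1.00 ± 0.36) and Tgfb1 (0.86 ± 0.12) were higher and Il2 (-1.67 ± 0.62) was lower. The Il2 value rested on 6 UMIs in Foxp3-positive cells. The 1 lower gene of either list is not read as differing from the share of all genes. Tnfsf4 and Tnfsf18 had too few UMIs to be tested.

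The 10 genes with the largest rise over all genes were Klrg1, Itgae, Tnfrsf9, Lamc1, Ccr3, Lrrc32, Il2ra, Gzmb, Sdc4 and Ikzf2, so that 3 of them were members. Lamc1, a laminin chain, rose by 5.12 ± 0.31 on the log2 scale, Gzmb, granzyme B, by 4.89 ± 0.25 and Sdc4, a syndecan, by 4.64 ± 0.37. Mki67, a gene of dividing cells, was also higher (2.43 ± 0.44). The 5 genes with the largest fall, Ggt5, A530021J07Rik, Hotairm1, Rnf32 and Gm10762, had 0 UMIs in the Foxp3-positive cells of all libraries. Set against 3 UMIs over the group, they were at least 10.9-fold, 6.36-fold, 3.32-fold, 2.90-fold and 2.52-fold lower.

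The CD4 T-like cells were spread over sub-clusters in different proportions in each library. T4 held 9.36%, 8.15%, 25.7% and 10.6% of them, T0 held 53.5%, 30.9%, 36.7% and 44.8%, and T1 held 30.7%, 58.6%, 34.0% and 42.5%. Papain-WT thus stood apart by its T4 cells, and under DPBS the WT cells lay mainly in T0 and the KO cells mainly in T1. Among these 3 largest CD4 sub-clusters, Foxp3-positive cells were mostly in T4, a sub-cluster whose leading genes were Foxp3, Chst2, Pdcd1, Ctla4 and Tnfrsf4, although no member entered the clustering as a variable gene. In T4, 34 of 109 CD4 T-like cells were Foxp3-positive in DPBS-WT (31.2%) and 14 of 67 in its KO counterpart (20.9%). Under papain they were 93 of 327 in WT (28.4%) and 26 of 89 in KO (29.2%). In T0 and T1, whose leading genes both included Ly6c1, Cd4 and Trat1, 0.787% to 3.07% of CD4 T-like cells were Foxp3-positive. The Foxp3 level over all T4 cells was 123, 117, 148 and 149 CPM, and the counting intervals of its ratio between Papain-KO and Papain-WT (log2 0.01, -0.32 to 0.32) and between DPBS-KO and DPBS-WT (-0.07, -0.57 to 0.41) included 0.

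The receptors differed between libraries within T4. Tnfrsf4 was at 218, 358, 826 and 531 CPM, with a log2 ratio of KO to WT of 0.72 under DPBS (0.41 to 1.03) and -0.64 under papain (-0.80 to -0.48). Tnfrsf9 was at 60.1, 86.5, 202 and 167 CPM and Tnfrsf18 at 245, 281, 516 and 419.9 CPM, so that both papain libraries stood above both DPBS libraries. Ctla4 was at 363, 328, 554 and 423 CPM and Ikzf2 at 328, 306, 423 and 372 CPM, again with Papain-WT highest. Ikzf4 was at 20.04, 18.1, 49.1 and 19.7 CPM, where Papain-WT stood alone. Of T4 cells without a Foxp3 UMI (75, 53, 234 and 63 cells), Tnfrsf4 was at 63.3, 157, 518 and 169 CPM, above the 17.6, 43.6, 23.0 and 28.2 CPM of Foxp3-negative cells outside T4.

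**Figure D3:**
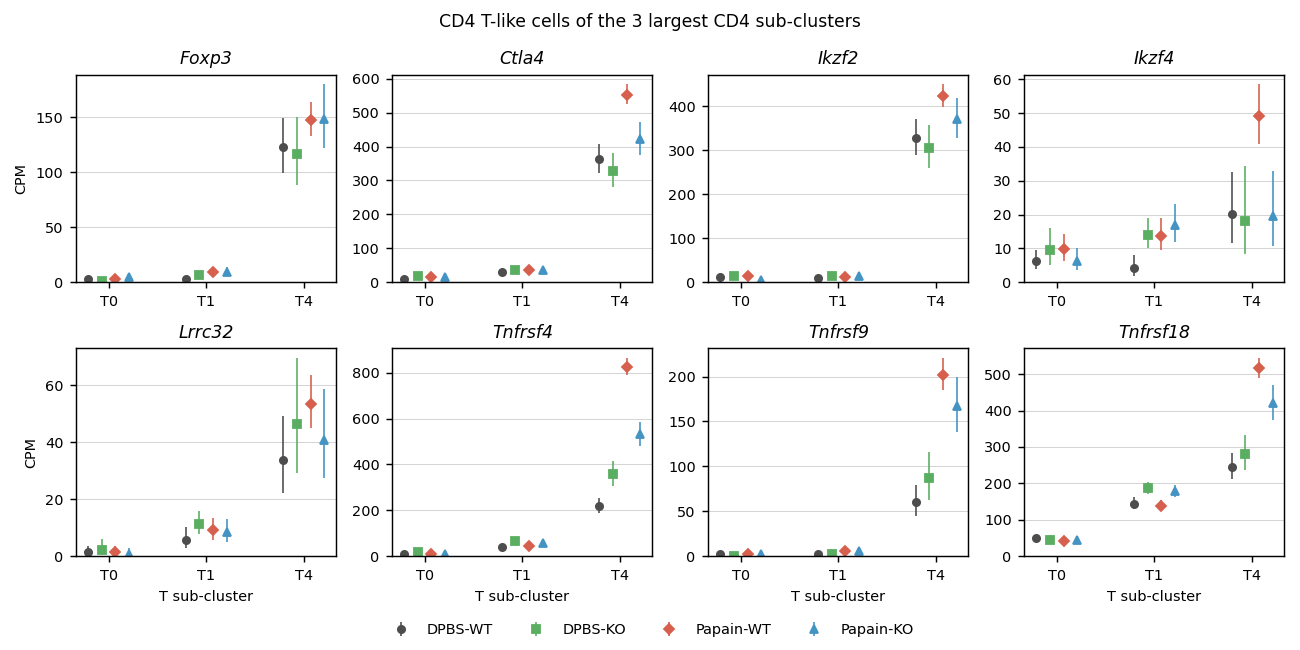
Level of each member in CPM (y axis, linear from 0) in CD4 T-like cells of the sub-clusters T0, T1 and T4 (x axis), with 1 point per library and 95% Poisson intervals. All 8 members were highest in T4 in every library, and within T4 the Papain-WT point of Tnfrsf4 (826 CPM) lay above the other 3 (218 to 531 CPM). For Ikzf4 the T4 and T1 intervals overlapped in DPBS-KO (18.1 and 14.0 CPM) and in Papain-KO (19.7 and 16.8 CPM).

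Genotype was compared first under DPBS, over all CD4 T-like cells, where fewer regulatory T cells and less RNA per cell cannot be told apart. Foxp3 was at 16.6 CPM in DPBS-KO and 18.4 CPM in DPBS-WT, a log2 ratio of -0.15 (exact conditional interval -0.57 to 0.27). Ctla4 (0.00, -0.23 to 0.22) and Tnfrsf9 (0.16, -0.42 to 0.73) also had intervals that included 0. Ctla4 stood at -0.40 (-0.58 to -0.22) once Cd4 cells of unnamed T sub-clusters were added, and Tnfrsf9 at 0.54 (0.05 to 1.03) once T cells with neither call were added. Ikzf2 was lower in KO (-0.27, -0.52 to -0.01), although at 0.016 in the gated cells. The other 4 members were higher in the KO library: Tnfrsf4 by 0.88 (0.65 to 1.10), Ikzf4 by 0.86 (0.30 to 1.43), Lrrc32 by 0.67 (0.10 to 1.25) and Tnfrsf18 by 0.55 (0.40 to 0.70). In the gated cells the intervals of Ikzf4 (1.02, -0.14 to 2.21) and Lrrc32 (0.31, -0.88 to 1.48) included 0. Within T0, where Tnfrsf18 was low, its ratio was -0.14 (-0.57 to 0.28), and within T1 it was 0.37 (0.16 to 0.58). None of the 8 reached 2-fold in either direction, where 1.19% of 9916 genes were 2-fold higher and 1.57% were 2-fold lower.

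Under papain all 8 members were lower in KO than in WT. Tnfrsf4 had the lowest ratio, -1.495 (-1.63 to -1.36), and without the single cell with the most UMIs in each library it was -1.69, since 1 Papain-KO cell had 80 of the 540 Tnfrsf4 UMIs. Tnfrsf9 stood at -1.39 (-1.67 to -1.12), Ikzf2 at -1.34 (-1.53 to -1.16), Ctla4 at -1.27 (-1.43 to -1.12) and Lrrc32 at -1.20 (-1.68 to -0.73). These 5 were more than 2-fold lower, where 4.85% of 10348 genes were, and 0 members were 2-fold higher, where 0.802% of genes were. Foxp3 stood at -0.97 (-1.25 to -0.69), Ikzf4 at -0.93 (-1.35 to -0.53) and Tnfrsf18 at -0.57 (-0.69 to -0.45). The median of the 8 was -1.23, and that of all genes was -0.13.

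These ratios pool sub-clusters, and T4 held 327 of 1274 CD4 T-like cells in Papain-WT and 89 of 842 in Papain-KO. Within T4 the papain ratio of KO to WT was 0.01 for Foxp3 (-0.32 to 0.32). Within T4 the KO library was below WT for Ikzf4 (-1.32, -2.23 to -0.52), Tnfrsf4 (-0.64), Ctla4 (-0.39, -0.57 to -0.21) and Tnfrsf18 (-0.30, -0.48 to -0.11), and the intervals of Ikzf2, Lrrc32 and Tnfrsf9 included 0. Outside T4, Ikzf2 was lower in KO (-0.89, -1.41 to -0.39) and Tnfrsf18 was higher (0.30, 0.12 to 0.48). The intervals of the other 6 outside T4 included 0, with Foxp3 at 0.06 (-0.61 to 0.73), Ctla4 at 0.04 (-0.30 to 0.39) and Tnfrsf4 at 0.22 (-0.11 to 0.54).

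The size of the papain genotype ratio also depended on how the cells were called. In the cells gated by their own transcripts the ratio was -1.40 for Tnfrsf9 (-1.88 to -0.94), -1.27 for Tnfrsf4 (-1.49 to -1.07), -0.95 for Ikzf2 (-1.22 to -0.68), -0.51 for Foxp3 (-0.98 to -0.05), -0.46 for Ctla4 (-0.65 to -0.28) and -0.35 for Tnfrsf18 (-0.53 to -0.16). The intervals of Ikzf4 (-0.52, -1.21 to 0.15) and Lrrc32 (-0.52, -1.24 to 0.17) included 0. Only Tnfrsf9 and Tnfrsf4 kept a 2-fold difference in the gated cells.

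Papain was then compared with DPBS within each genotype. In WT all 8 members were higher in the papain library. Tnfrsf9 stood at 2.86 (2.47 to 3.28) and Tnfrsf4 at 2.66 (2.48 to 2.84). The other 6 were Ikzf4 (1.70, 1.23 to 2.19), Ctla4 (1.69, 1.53 to 1.86), Ikzf2 (1.51, 1.33 to 1.69), Lrrc32 (1.49, 1.02 to 1.98), Foxp3 (1.47, 1.17 to 1.78) and Tnfrsf18 (1.08, 0.95 to 1.21). All 8 were more than 2-fold higher, where 5.89% of 10436 genes were, and 0 were 2-fold lower, where 0.805% of genes were. Scaling by TMM factors shifted this contrast by -0.15 on the log2 scale, and 7 members then passed 2-fold against 4.62% of genes, with Tnfrsf18 at 0.93. The median of the 8 was 1.60, and that of all genes was 0.14. Within T4 the same contrast was 1.92 for Tnfrsf4 (1.70 to 2.15), 1.07 for Tnfrsf18 (0.85 to 1.30) and 0.27 for Foxp3 (-0.06 to 0.61). Outside T4 it was 0.60 for Tnfrsf4 (0.24 to 0.96), 0.06 for Tnfrsf18 (-0.12 to 0.25) and 1.03 for Foxp3 (0.24 to 1.86).

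In KO the papain library differed less from the DPBS library. Tnfrsf9 stood at 1.31 (0.83 to 1.81) and was the only member more than 2-fold higher, where 1.46% of 9827 genes were. None was 2-fold lower, where 0.906% of genes were. Foxp3 (0.65, 0.25 to 1.06), Ikzf2 (0.44, 0.18 to 0.70), Ctla4 (0.43, 0.21 to 0.64) and Tnfrsf4 (0.29, 0.10 to 0.48) were higher by less than 2-fold. Without cells that had a Mki67 or Top2a UMI, the intervals of Ikzf2 (0.27, -0.02 to 0.57), Ctla4 (0.18, -0.07 to 0.43) and Tnfrsf4 (0.19, -0.01 to 0.40) included 0. The intervals of Ikzf4 (-0.10, -0.61 to 0.41), Lrrc32 (-0.38, -0.96 to 0.19) and Tnfrsf18 (-0.04, -0.19 to 0.10) included 0. The difference between the genotypes in their papain ratio was not tested, since each ratio rests on 1 library per group, and the contrasts share libraries.

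Levels were also read within Foxp3 status. In Foxp3-positive cells, Foxp3 itself was at 334, 456, 489 and 411 CPM, which describes the cells chosen by it. The papain library of WT stood above its DPBS library for Tnfrsf9 (1.88, 1.43 to 2.36), Tnfrsf4 (1.73, 1.49 to 1.99), Ikzf4 (1.23, 0.49 to 2.04), Tnfrsf18 (1.17, 0.90 to 1.45), Ctla4 (1.11, 0.87 to 1.36), Ikzf2 (0.86, 0.64 to 1.09) and Lrrc32 (0.84, 0.28 to 1.45). In KO the same contrast had an interval above 0 for Tnfrsf9 only (0.67, 0.14 to 1.24), and those of the other 6 included 0. Under papain the KO library stood below WT for Ikzf4 (-1.79, -2.79 to -0.92), Ikzf2 (-0.84, -1.07 to -0.62), Ctla4 (-0.78, -1.0 to -0.56), Tnfrsf4 (-0.60, -0.78 to -0.42), Tnfrsf18 (-0.47, -0.70 to -0.24) and Tnfrsf9 (-0.44, -0.75 to -0.14), whereas the interval of Lrrc32 (-0.43, -0.96 to 0.08) included 0.

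In Foxp3-negative cells the KO library was below WT under papain for the other 7 members too, and the interval included 0 for Ikzf4 only. T4 held 6.73%, 6.67%, 20.2% and 7.89% of the Foxp3-negative cells. Outside T4 the papain ratio in these cells was 0.30 for Tnfrsf18 (0.11 to 0.49), 0.29 for Tnfrsf4 (-0.07 to 0.66) and 0.07 for Ctla4 (-0.32 to 0.46), so that the lower level in KO was not seen there for these 3, and it was -0.64 for Ikzf2 (-1.26 to -0.04). Tnfrsf9 was at 2.13, 2.29, 18.6 and 3.29 CPM in them, so that Papain-WT stood apart, with a log2 ratio to Papain-KO that put KO at -2.50 (-3.32 to -1.77). Tnfrsf4 had a KO ratio of -1.80 under papain (-2.02 to -1.59) and of 1.29 under DPBS (0.98 to 1.61). For Ctla4 the papain ratio of KO was -1.09 (-1.31 to -0.86) and for Tnfrsf18 -0.35 (-0.49 to -0.20). Ift20 in Foxp3-positive cells was at 98.1, 5.49, 101 and 28.5 CPM from 35, 1, 85 and 10 UMIs, so that the KO libraries were also lower in these cells.

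**Figure D4:**
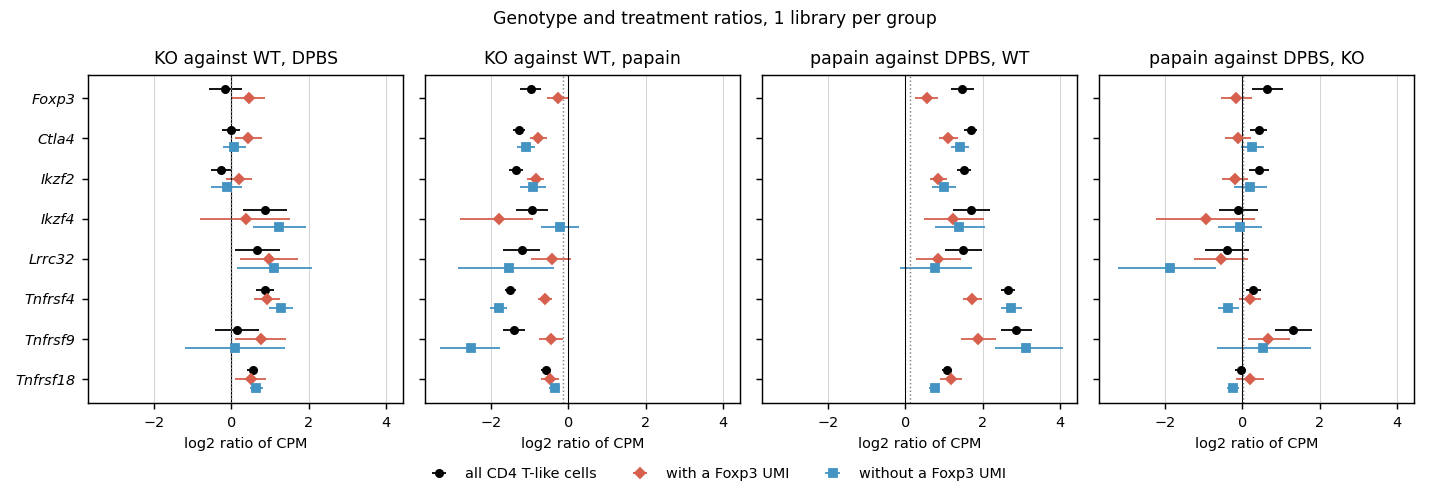
Log2 ratio of CPM (x axis) for each member (y axis) in the 4 contrasts, in all CD4 T-like cells (circles), those with a Foxp3 UMI (diamonds) and those without (squares), with 95% intervals that cover counting error and a dotted line at the median of all genes. Over all CD4 T-like cells the 8 members lie between -1.495 and -0.57 for KO against WT under papain and between 1.08 and 2.86 for papain against DPBS in WT.

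The partner lists were read in the same CD4 T-like sums, without a test. Of 22 surface and secreted genes with at least 20 UMIs, 19 were more than 2-fold higher in Papain-WT than in DPBS-WT (5.89% of all genes were), among them Il1rl1, the ST2 chain of the IL-33 receptor, Itgb8, Ccr8 and Ebi3, and 17 were more than 2-fold lower in Papain-KO than in Papain-WT (4.85% of all genes). In KO, 3 of 18 were more than 2-fold higher under papain (Klrg1, Il1rl1 and Areg, against 1.46% of all genes). Under DPBS 1 of 17 was more than 2-fold lower in KO (Il10, against 1.57%). Of 16 transcription factors, Rora, Gata3, Maf, Irf4 and Tbx21 were more than 2-fold higher in Papain-WT than in DPBS-WT (5.89% of all genes). The first 4 were more than 2-fold lower in Papain-KO than in Papain-WT (4.85%). Of 13 genes of the TRAF and NF-κB route, Traf3, Nfkb1, Nfkb2 and Rel were more than 2-fold higher in Papain-WT than in DPBS-WT. Traf3 was more than 2-fold lower in Papain-KO than in Papain-WT. The median log2 ratio of Papain-WT to DPBS-WT was 0.76 for the factors and 0.90 for this route. Over all genes it was 0.14. Counts of 1 gene, such as those of Il10 and Traf3, are not read as differing from the shares of all genes.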

How the data were processed

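The deposited files hold counts of UMIs per gene and cell barcode for 4 libraries, which the authors made with Cell Ranger on mm10 per the labels and with software version 3.1.0 per the file headers; the gene annotation is not given in the sources used here. The total of UMIs per library sets the precision, and intervals (exact Poisson, Clopper-Pearson or conditional binomial, 95%) cover counting error only, not the difference between mice.

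Barcodes with over 200 genes and under 15% mitochondrial UMIs were kept, and 557, 271, 540 and 267 likely doublets were removed with Scrublet (scanpy 1.11.5, at 0.8% per 1000 barcodes). Cells were integrated and clustered in Seurat 5.3.0 (2000 variable genes without the members, 30 dimensions, resolution 0.8) and named "-like" from fixed markers. A T cell was CD4 T-like with a Cd4 and no Cd8 UMI, or with neither in a sub-cluster where at least 50% of typed cells had Cd4 alone, and CD8 T-like by Cd8 with a share of 80%. These shares were set after the clusters were seen. The members, the lists and the comparisons were chosen with earlier results of these data known.

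UMIs were summed per library and class and given as CPM. Genotypes and treatments were compared by ratios without a test, with genes of at least 20 UMIs in both sums together as background. Foxp3-positive and Foxp3-negative sums were tested in edgeR 4.0.16 (TMM, filterByExpr, robust quasi-likelihood fit, library as block, Benjamini-Hochberg over all genes, R 4.3.3). The same fit was also run on simulated sums, in which the libraries differed only in depth and not by genotype or treatment. Library as a block pairs the 2 sums of the same cell suspension. Named genes were the members, up to 4 genes per list and direction by fold, the 10 highest and 5 lowest folds with at least 50 UMIs and 1 direction in 4 libraries, and the 3 genes most like each member. A transcription factor that this rule names is not reported here. Promoter windows came from RefSeq (GRCm38.p6).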

Additional observations from a re-analysis of the deposited data

Results flagged for a closer look

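The members below were singled out because the KO and WT libraries differed in opposite directions under DPBS and under papain, with both counting intervals away from 0. Values are log2 ratios of KO to WT, first under DPBS and then under papain. Each rests on 1 library per group, and the difference between the 2 ratios was not tested. The libraries also differ in the sub-clusters of their CD4 T-like cells, and the part of these proportions in the ratios was not tested. T1, where Tnfrsf18 is higher than in T0 (138.5 to 186.5 against 41.3 to 49.1 CPM), held 30.7% of the WT and 58.6% of the KO cells under DPBS, and T4 held 25.7% and 10.6% under papain.

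Tnfrsf4 did so in all CD4 T-like cells (0.88 and -1.50), in Foxp3-positive cells (0.93 and -0.60) and in Foxp3-negative cells (1.29 and -1.80). Tnfrsf18 did so in all CD4 T-like cells (0.55 and -0.57), in Foxp3-positive cells (0.50 and -0.47) and in Foxp3-negative cells (0.64 and -0.35). Lrrc32 turned in all CD4 T-like cells (0.67 and -1.20) and in Foxp3-negative cells (1.10 and -1.52). The Foxp3-negative values of Lrrc32 rested on few cells. Under DPBS there were 16 UMIs in 9 WT cells and 27 UMIs in 8 KO cells. Under papain there were 32 UMIs in 20 WT cells and 8 UMIs in 5 KO cells. Ikzf4 turned in all CD4 T-like cells (0.86 and -0.93). In cells gated by transcripts, all 4 intervals of Lrrc32 and Ikzf4 included 0. Outside T4, Tnfrsf18 did not turn, at 0.72 and 0.30, nor did Tnfrsf4, at 1.37 and 0.22. Within T4, Tnfrsf4 stood at 0.72 and -0.64. In Foxp3-positive cells alone, Ctla4 stood at 0.45 and -0.78 and Tnfrsf9 at 0.76 and -0.44. The DPBS value of Tnfrsf9 rested on 39 UMIs in 7 of 27 KO cells, with 19 UMIs in 1 cell. In WT there were 45 UMIs in 16 of 50 cells, with 17 UMIs in 1 cell. By share of cells with a Tnfrsf9 UMI, KO was thus lower under DPBS (25.9% against 32.0%).

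In Foxp3-negative cells the log2 ratio of papain to DPBS also differed in direction between the genotypes, at 2.74 in WT and -0.36 in KO for Tnfrsf4 and at 0.76 in WT and -0.23 in KO for Tnfrsf18. This difference was not tested either. T4 held 6.73% and 20.2% of the Foxp3-negative WT cells under DPBS and papain, and 6.67% and 7.89% of the KO cells. Outside T4 the ratios were 0.39 and -0.63 for Tnfrsf4 and 0.03 and -0.37 for Tnfrsf18.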

How the results depend on the processing

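All 7 other members were called higher in Foxp3-positive cells under each of 16 alternatives (another scaling, DESeq2 1.42.0, no filter, no library block, a library left out, other cell calls). The number of genes called depended more on the settings than the members did. Against 1285 genes higher and 1156 lower, thinning to 2000 UMIs before calling and summing left 279 and 415, and gating cells on transcripts left 470 and 453. DESeq2 called 512 genes lower. Leaving out a library gave 874 to 1157 higher and 712 to 965 lower, lowest without Papain-WT. The fit without the library block kept every member's call.

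The 4 ratios of the Foxp3-positive share stayed within their intervals in 44 of 44 recomputed values, including those of the 3 alternatives chosen after seeing the data. In 3 of them the recomputed interval included 0 where the main one did not: the papain genotype ratio in gated cells (-0.64) and without cells of 1 Foxp3 UMI (-1.14), and the WT papain ratio in gated cells (0.84). Of 320 alternative member ratios, 279 stayed within the interval, 40 moved outside it and 1 reversed: Ikzf2, KO to WT under DPBS, was 0.016 in gated cells against -0.27. Among the member ratios with an interval, 15 of 288 changed whether it included 0, of which 6 were in gated cells. The cause was not tested. Depth limits the Foxp3 call, since a cell with few UMIs can lack a Foxp3 UMI by chance.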
